A study of Mus musculus with 20 samples.

Results

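The metallothionein genes Mt1, Mt2 and Mt3 and the gene of the metal-responsive transcription factor Mtf1 were taken by symbol from a table of gene counts, where they are 4 of 24419 genes. The libraries came from dissociated hippocampal cultures of C57BL6 mouse embryos at embryonic day 18, with the tissue of 4 embryos pooled before plating. All cultures had 4 µM cytosine arabinoside, which is toxic to proliferating cells, between days 3 and 6, and were used at day 10 in vitro. For 2 min they received imaging medium alone (control), 50 µM glutamate, 50 µM glutamate with 10 µM ZnCl2 (zinc group), or 50 µM glutamate with 10 µM of the zinc chelator tris(2-pyridylmethyl)amine (TPA group), the last after 1 min in the chelator alone. RNA was taken 90 min later, after incubation at 37 °C, from 5 libraries per group, numbered 1 to 5 in the labels. None of the groups analysed here had zinc or TPA without glutamate.

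Metallothioneins are small cysteine-rich proteins that bind zinc and copper in the cytoplasm and release them again. MTF1, the protein of Mtf1, is a zinc-finger transcription factor that binds metal response elements in promoters when free zinc is high, and the metallothionein genes and the zinc exporter gene Slc30a1 are its best known targets. Mt1 and Mt2 are expressed in most tissues and in brain mainly in astrocytes, while Mt3 is enriched in brain and is far less inducible by metals.

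Mt3, Mt2 and Mt1 lie in that order on the plus strand of chromosome 8 (build mm10). Mt3 is at chr8:94152607-94154148, Mt2 at chr8:94172618-94173567 and Mt1 at chr8:94179089-94180327, each with 3 exons. The start of Mt2 is 20.01 kb from that of Mt3 and 6.47 kb from that of Mt1. Mtf1 is at chr4:124802549-124849800, also on the plus strand, with 11 exons. The exons add up to 542 bases for Mt1, 556 for Mt2, 538 for Mt3 and 7631 for Mtf1.

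The promoter sequences of Mt1 and Mt2 are shown because they hold matches to the core of the element that MTF1 binds. They come from RefSeq (GRCm38.p6, the assembly of mm10), where all 4 genes had an entry whose start equals that of the deposited annotation. Each is written 5′ to 3′ on the plus strand, with matches to the metal response element core (TGCACNC or TGCGCNC, N being any base, searched on both strands) in capitals. The upstream sequences are the 250 bases before the start, at chr8:94178839-94179088 for Mt1 and chr8:94172368-94172617 for Mt2. The start sequences are short stretches just after it, at chr8:94179089-94179118 for Mt1, chr8:94172620-94172649 for Mt2 and chr8:94152632-94152656 for Mt3.
Mt1 upstream: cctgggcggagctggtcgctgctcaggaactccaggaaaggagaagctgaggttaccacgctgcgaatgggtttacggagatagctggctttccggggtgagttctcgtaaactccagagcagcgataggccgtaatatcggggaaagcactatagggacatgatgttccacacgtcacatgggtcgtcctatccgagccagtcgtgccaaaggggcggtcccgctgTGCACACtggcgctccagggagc
Mt1 start: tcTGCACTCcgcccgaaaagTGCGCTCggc
Mt2 upstream: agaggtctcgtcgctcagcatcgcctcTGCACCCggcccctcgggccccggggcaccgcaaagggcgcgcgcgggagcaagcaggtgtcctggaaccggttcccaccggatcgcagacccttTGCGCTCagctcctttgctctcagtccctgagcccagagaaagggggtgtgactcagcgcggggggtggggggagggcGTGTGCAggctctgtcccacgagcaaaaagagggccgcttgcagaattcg
Mt2 start: tcGTGCGCAggcccaggggcgtgtgctggc
Mt3 start: agTGCACACacacggagagcaggcg

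Within 250 bases before and 50 after the annotated start, Mt2 held 4 core matches and Mt1 held 3. Whether transcription began at the annotated start in these cultures was not tested, and matches outside this window were not counted. Counting the first base of the annotated gene as 1 and the base before it as -1, the matches of Mt1 began at positions -23, 3 and 21. Those of Mt2 began at positions -223, -128, -50 and 5, the last pair on the minus strand, so that they read in reverse complement above. Mt3 held 1 match, at position 28, and Mtf1 held 0. Of 32817 promoters of the same length, 25.7% held at least 1 match, 1.97% at least 3 and 0.518% at least 4.

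Of the other motifs searched on both strands, the antioxidant response element core (TGACNNNGC) was found in Mt2 at position -79, overlapping an AP-1 site (TGACTCA or TGAGTCA) at the same position. Of all promoters 12.4% held the former and 5.20% the latter. The GC box (GGGCGG) was found 3 times in Mt1, once overlapping a metal response element core by 1 base, and 1 time in Mtf1, and 35.6% of promoters held it. The cAMP response element (TGACGTCA) was in none of the 4 and in 1.79% of promoters. A match describes the letters and is not evidence of binding.

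**Figure D1:**
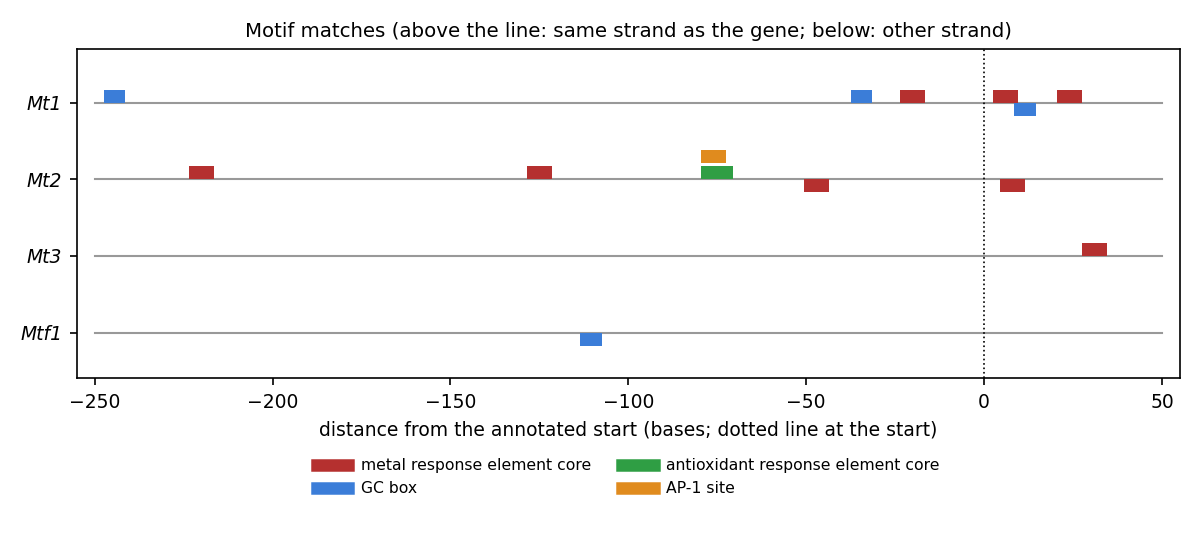
Motif matches along the promoter windows of Mt1, Mt2, Mt3 and Mtf1, with the distance from the annotated start in bases on the horizontal axis. Bars above a line are on the strand of the gene and bars below it on the other strand; Mt2 has 4 metal response element cores, Mt1 has 3, Mt3 has 1 and Mtf1 has 0.

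Library totals ran from 28692470 counts (TPA library 2) to 40934630 (glutamate library 5). They were 36106575 to 39765787 in control, at least 35559330 in glutamate, 33445137 to 38435627 in the zinc group and at most 38767979 in the TPA group, where libraries 2 and 4 were the smallest of all 20. Each of the 4 genes had between 574 and 2442 counts in every library. Glutamate libraries 4 and 5 and zinc library 5 lay farthest from their group means over all genes. Per the labels these are biological replicates. With tissue pooled from 4 embryos, p-values here measure only the spread between these samples.

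The cultures expressed the markers of neurons and, at a lower summed level, of astrocytes. The 10 astrocyte markers, Gfap, Slc1a2 and Aldoc among them, summed to 890 to 1014 CPM (counts relative to the library total, adjusted by edgeR's TMM factors) in control, 895 to 1014 in glutamate, 861 to 966 in the zinc group and 833 to 952 in the TPA group. Slc1a2 averaged 649 CPM over the 20 libraries and the next highest astrocyte marker, Slc1a3, 98.8, so the astrocyte sums mostly follow Slc1a2. The 9 neuronal markers summed to 5576 to 6210 CPM over the 20 libraries and the 6 microglial markers to 2.47 to 4.18 CPM. The globin genes Hba-a1, Hbb-bs and Hbb-bt were at 0 in every library. In bulk RNA, fewer cells of a type and less RNA per cell cannot be told apart.

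Compared per length in TPM (length-scaled transcript abundance, as deposited), Mt1 was the most abundant of the 4. Its mean over the 20 libraries was 302 TPM, rank 624 of all genes. Mt2 had 168 TPM (rank 1347), Mt3 had 152 TPM (rank 1499) and Mtf1 had 17.8 TPM (rank 7860). By group, Mt1 had 288 ± 11.98 TPM in control, 305 ± 17.9 in glutamate, 330 ± 30.02 in the zinc group and 287 ± 16.9 in the TPA group (SD, n = 5 each). Mt2 had 153 ± 8.95 TPM in control and Mt3 had 164 ± 10.9, whereas in the zinc group Mt2 had 194 ± 21.7 and Mt3 had 148 ± 11.4. The order of Mt2 and Mt3 therefore differed between these groups. In control their ranges overlapped, at 142 to 161 TPM for Mt2 and 150 to 180 TPM for Mt3. Mt4, the remaining gene of the cluster, had 16 counts in all 20 libraries together and could not be tested.

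The question put to the 4 genes was whether a brief glutamate stimulus, and the zinc present during it, moved the transcripts that buffer and sense zinc. None of the 24 tests (4 genes in 6 comparisons) passed an adjusted p of 0.05 over the 14411 genes tested with edgeR, and 8 had an unadjusted p under 0.05. By comparison these were 0 of 4 for glutamate against control (4.98% of all genes), 2 for zinc against glutamate (5.98%), 1 for TPA against glutamate (7.15%), 2 for TPA against zinc (16.0%), 2 for zinc against control (11.1%) and 1 for TPA against control (3.09%). DESeq2 passed 3 of the 24 and limma-voom passed 0. The 3 were Mt1 and Mt2 between TPA and zinc, where 4.49% of the 11058 genes with an adjusted p passed, and Mt2 between zinc and control (0.444% of 14410). The differences nearest to the threshold were those of Mt2 and Mt1, which had their highest means in the zinc group. Mt3 had its highest mean in control, and the means of Mtf1 lay between 43.6 and 45.7 CPM.

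Mt2, one of the pair of zinc-inducible metallothionein genes, was measured at 26.7, 29.97, 29.8, 29.3 and 26.3 CPM in control libraries 1 to 5. In glutamate it had 29.3, 33.2, 31.5, 36.2 and 29.1 CPM. In the zinc group it had 32.8, 35.6, 39.0, 40.9 and 31.0 CPM. All 5 zinc libraries lay above all 5 control libraries, with zinc library 5 the closest to them, while the glutamate libraries overlapped both. In the TPA group Mt2 had 33.7, 24.9, 28.4, 25.7 and 26.9 CPM. TPA library 1 reached the range of the zinc group, and the other 4 lay below every zinc library and below every glutamate library.

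As group means Mt2 stood at 28.4 ± 1.77 CPM in control, 27.9 ± 3.47 in the TPA group, 31.9 ± 2.96 in glutamate and 35.9 ± 4.11 in the zinc group. Control and TPA, neighbours in this order, differed by a log2 fold change of -0.02 (TPA minus control, SE 0.08). Glutamate was 12.1% above control (log2 fold change 0.17, SE 0.08, edgeR adjusted p = 0.950). The zinc group was 12.6% above glutamate (0.17, SE 0.08, adjusted p = 0.832), and the TPA group was 12.2% below glutamate (-0.19, SE 0.08, adjusted p = 0.690). These comparisons share the glutamate libraries and are not independent of each other. Adjusted p under 0.05 was reached by 0.0208% of all genes for glutamate against control and by 0.0% for either comparison with glutamate, where 862 genes (zinc) and 1030 genes (TPA) had an unadjusted p under 0.05.

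Between TPA and zinc, where zinc was chelated in one group and added in the other, Mt2 was 1.28-fold lower with TPA (log2 fold change -0.36, SE 0.08, edgeR adjusted p = 0.0541), rank 76 of 14411 genes by p. Of all genes 74 passed in this comparison, which is 0.513%, and Mt2 was just outside them. DESeq2 on the same counts gave an adjusted p of 0.00452 for Mt2, and the authors' deposited table gives a shrunken log2 fold change of 0.24 for zinc over TPA with an adjusted p of 0.00453, in a comparison where 3.78% of genes passed. Over the 14 other settings tried, the log2 fold change of Mt2 lay between -0.41 and -0.27 and 8 settings passed, with adjusted p from 0.000273 to 0.297. Without glutamate 4 and 5 and zinc 5 it was -0.41 (adjusted p = 0.00565), in a fit where 1149 of 14550 genes passed. Without TPA libraries 2 and 4, the smallest, it was -0.27 (adjusted p = 0.297), and in that fit 0 genes passed between TPA and zinc with edgeR (1682 had an unadjusted p under 0.05).

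Leaving out 1 library at a time moved the log2 fold change of Mt2 between TPA and zinc from -0.43 (without TPA library 1) to -0.31 (without zinc library 4). It passed in 3 of the 10 omissions, those of TPA 1, zinc 4 and zinc 5, with adjusted p of 0.0143, 0.0329 and 0.0242. The sign was negative in all 10. The number of genes passing among all genes moved between 5 (without zinc library 3) and 899 (without zinc library 4) in the same omissions.

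**Figure D2:**
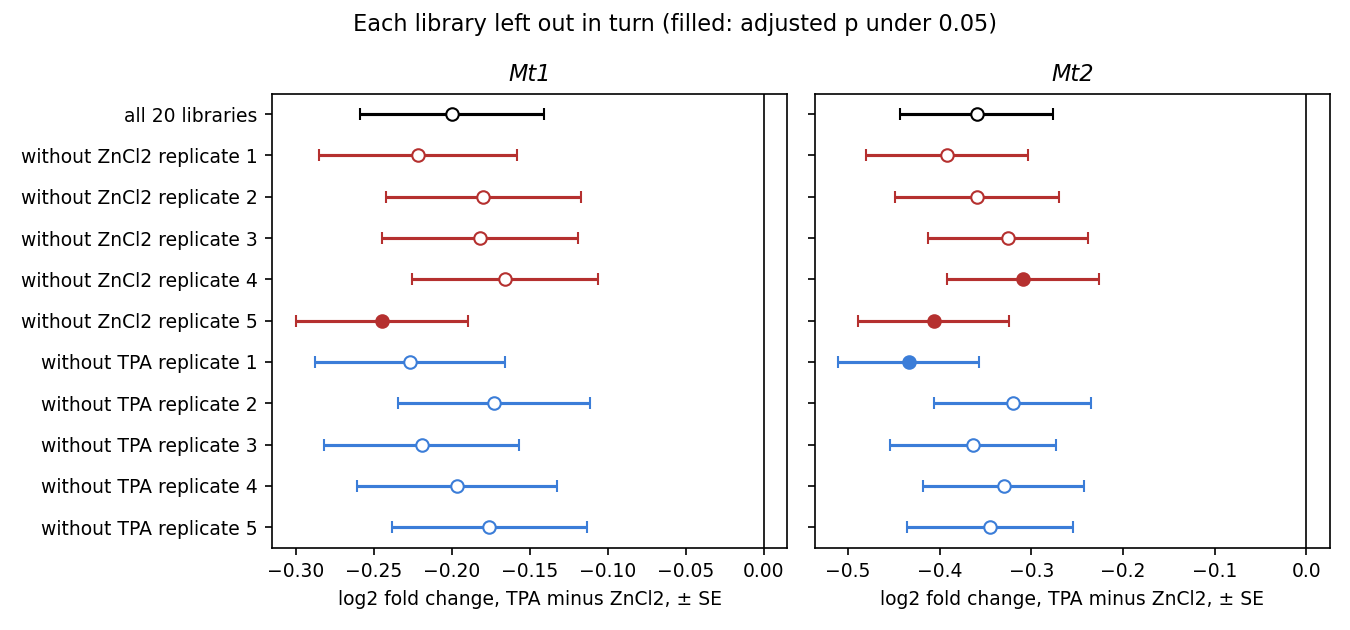
Log2 fold change (TPA minus zinc) of Mt1 and Mt2 with its standard error when each zinc or TPA library is left out, with the fit of all 20 libraries on top; filled points have an adjusted p under 0.05. Mt2 stays between -0.43 and -0.31 and passes in 3 of 10 omissions, and Mt1 stays between -0.25 and -0.17 and passes in 1.

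Against control, Mt2 was 26.3% higher in the zinc group (log2 fold change 0.34, SE 0.08, edgeR adjusted p = 0.173), rank 44 of 14411. All 25 pairs of a zinc and a control library had the higher value with zinc. That separation was shared by 1.31% of all genes in that direction, and 0.0416% of genes passed the adjusted threshold. The authors' deposited table has Mt2 past the threshold here (shrunken log2 fold change 0.22, adjusted p = 0.0219), where 0.561% of genes passed, and DESeq2 gave 0.0277. Without glutamate 4 and 5 and zinc 5 the log2 fold change was 0.38 (adjusted p = 0.0226), in a fit where 231 of 14550 genes passed.

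Mt1 encodes the partner metallothionein of Mt2. It was measured at 49.3, 53.1, 54.6, 53.2 and 49.6 CPM in control and at 50.9, 56.0, 54.9, 58.8 and 51.7 CPM in glutamate. In the zinc group it had 56.4, 62.4, 62.2, 65.3 and 51.9 CPM, and in the TPA group 56.1, 48.2, 54.9, 51.7 and 48.5 CPM. Zinc libraries 1 to 4 lay above all control libraries and zinc library 5 within them. TPA libraries 2, 4 and 5 lay below all zinc libraries, while TPA 1 and 3 overlapped them. As for Mt2, library 4 was the highest and library 5 the lowest of the zinc group, and library 1 the highest and library 2 the lowest of the TPA group.

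The group means of Mt1 were 52.0 ± 2.37 CPM in control, 51.9 ± 3.63 in the TPA group, 54.5 ± 3.24 in glutamate and 59.6 ± 5.39 in the zinc group. The first 3 did not differ beyond their spread. The TPA group was 1.15-fold lower than the zinc group (log2 fold change -0.20, SE 0.06, edgeR adjusted p = 0.0980), and the zinc group was 14.8% above control (0.20, SE 0.06, adjusted p = 0.252). Glutamate against control gave 0.07 (SE 0.06, adjusted p = 0.962), zinc against glutamate 0.13 (SE 0.06, adjusted p = 0.785) and TPA against glutamate -0.07 (SE 0.06, adjusted p = 0.820). With single libraries left out the first of these ran from 0.04 to 0.09 and the last from -0.10 to -0.04, both nearest 0 without glutamate library 4. In the authors' deposited table Mt1 passed for zinc against TPA (shrunken log2 fold change 0.16, adjusted p = 0.0396) and not for zinc against control (0.16, adjusted p = 0.0991). Without glutamate 4 and 5 and zinc 5, Mt1 passed in both. It had -0.24 for TPA against zinc (adjusted p = 0.00807) and 0.24 for zinc against control (adjusted p = 0.0255). In that fit 1149 of 14550 genes passed for TPA against zinc and 231 for zinc against control. Without the smallest pair of libraries Mt1 had -0.16 for TPA against zinc (adjusted p = 0.391), where 0 genes passed.

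Mt3, the brain-enriched metallothionein, had its highest mean in control. It was measured at 28.7, 26.9, 28.9, 29.8 and 32.3 CPM in control and at 27.1, 27.2, 23.4, 34.1 and 26.8 CPM in glutamate. The zinc group had 28.5, 25.9, 28.4, 26.6 and 23.6 CPM and the TPA group 25.3, 20.2, 27.9, 26.6 and 25.0 CPM. Every group overlapped every other. Glutamate library 4 was the highest of all 20 and TPA library 2 the lowest.

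In CPM the group means of Mt3 ran from 29.4 ± 1.97 in control through 27.7 ± 3.92 in glutamate and 26.6 ± 2.01 in the zinc group to 25.0 ± 2.94 in the TPA group. No neighbours in that order differed beyond their spread. TPA against control gave a log2 fold change of -0.23 (SE 0.09, edgeR adjusted p = 0.9999), in a comparison where 0.0694% of genes passed. The unadjusted edgeR p was 0.0151, and 3.09% of genes had one under 0.05. For Mt3, 4 of 5 TPA libraries lay below all control libraries, and the share of genes like it in this was not counted. Zinc against glutamate gave -0.06 (SE 0.09) for Mt3, opposite in sign to the 0.17 of Mt2, and TPA against zinc gave -0.09 (SE 0.09). The latter was -0.02 without TPA library 2, the lowest of its group in Mt3, -0.03 without TPA libraries 2 and 4, and -0.17 with a GC offset within each library. The former turned to 0.08 without glutamate 4 and 5 and zinc 5, and to 0.03 without glutamate library 4 alone. Mt3 passed under none of the settings tried.

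Mtf1, the gene of the zinc sensor itself, had nearly equal means in control, glutamate and zinc. It was measured at 48.1, 46.2, 46.2, 42.7 and 45.3 CPM in control and at 49.8, 45.9, 49.6, 44.7 and 38.3 CPM in glutamate. The zinc group had 49.4, 50.8, 45.1, 43.3 and 39.8 CPM and the TPA group 45.8, 42.8, 42.6, 42.8 and 43.8 CPM. Glutamate library 5 and zinc library 5 were the lowest of all 20, both among the 3 that lay farthest from their group means over all genes, and the TPA libraries were the closest to each other.

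Mtf1 averaged 45.7 ± 1.97 CPM in control, 45.7 ± 4.67 in glutamate, 45.7 ± 4.49 in the zinc group and 43.6 ± 1.35 in the TPA group. Its log2 fold changes were -0.0017 for glutamate against control, 0.0027 for zinc against glutamate and -0.07 for TPA against zinc, each with an SE of 0.06 to 0.07. The sign of the first changed with the scaling, the filter, library weights, a length offset and the libraries in the fit, and that of the second with library weights and the libraries in the fit. The last was -0.11 without glutamate 4 and 5 and zinc 5 (SE 0.05, edgeR adjusted p = 0.142), -0.11 without zinc library 5 alone and -0.03 without zinc library 2. Mtf1 passed the threshold in no comparison under any setting tried. A transcript level says nothing of how much MTF1 protein was bound to zinc.

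**Figure D3:**
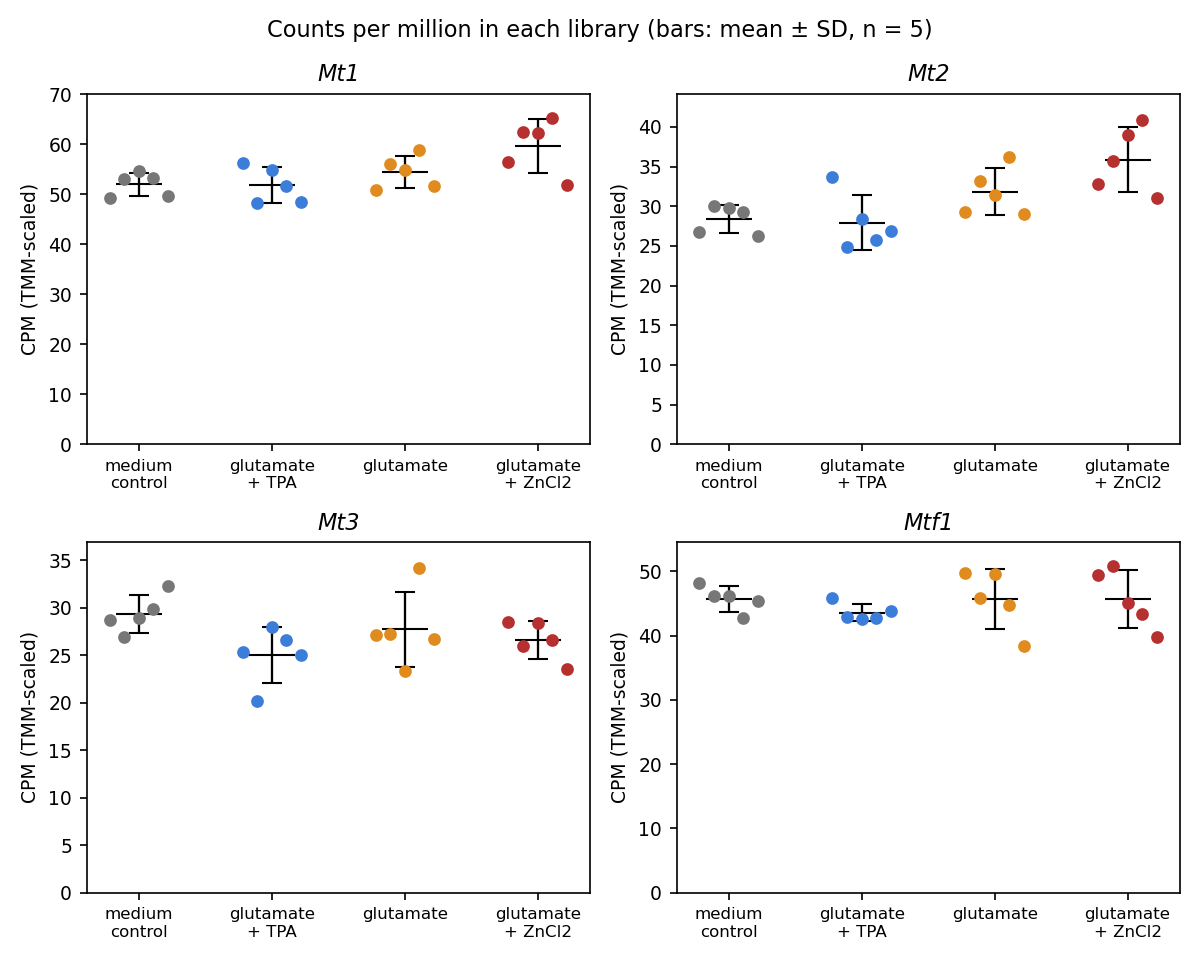
CPM (vertical axis, from 0) of Mt1, Mt2, Mt3 and Mtf1 in each of the 20 libraries, with the mean and SD of each group of 5. All 5 zinc libraries of Mt2 lie above its 5 control libraries, and the groups overlap for Mt1, Mt3 and Mtf1.

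**Figure D4:**
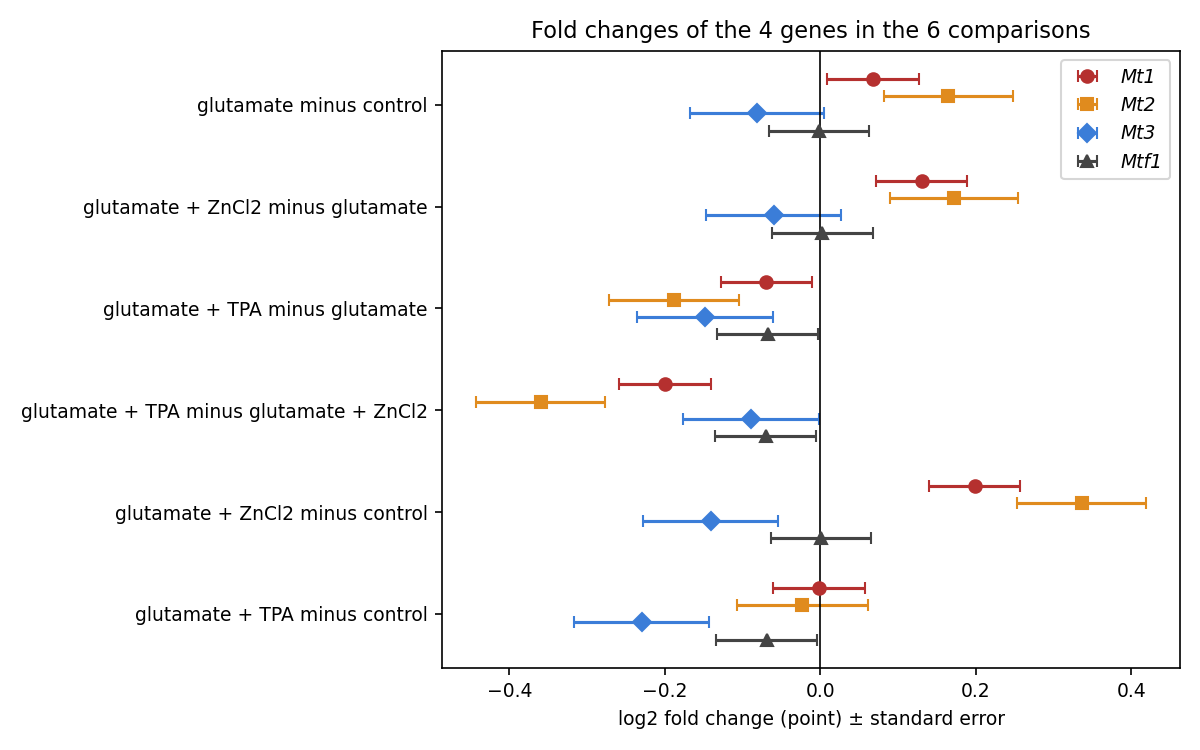
Log2 fold changes of the 4 genes with their standard errors in the 6 comparisons. Mt2 lies farthest from 0, at -0.36 for TPA minus zinc and 0.34 for zinc minus control, followed by Mt3 at -0.23 for TPA minus control and Mt1 at -0.20 and 0.20 in the same pair of comparisons as Mt2.

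Mt1 and Mt2 varied together from library to library. Over the 20 libraries Pearson's r of their log2 CPM was 0.94 and Spearman's rho 0.91 (both with permutation p = 1e-05, the smallest that 100000 resamples can give, and adjusted p = 6e-05 over the 6 pairs of the 4 genes). With each group's mean subtracted and resampling within groups, r was 0.90 and rho 0.90 with the same p, so r was nearly as high within groups. Without the 2 libraries farthest from the median of Mt1, r was 0.92 for the former and 0.88 for the latter. The other 5 pairs had r from 0.13 to 0.23 with permutation adjusted p from 0.461 to 0.596 (rho 0.05 to 0.29, adjusted p 0.623 to 0.826). After subtracting group means Mt1 and Mt3 had r 0.42 and rho 0.43 (permutation adjusted p = 0.256 and 0.253).

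**Figure D5:**
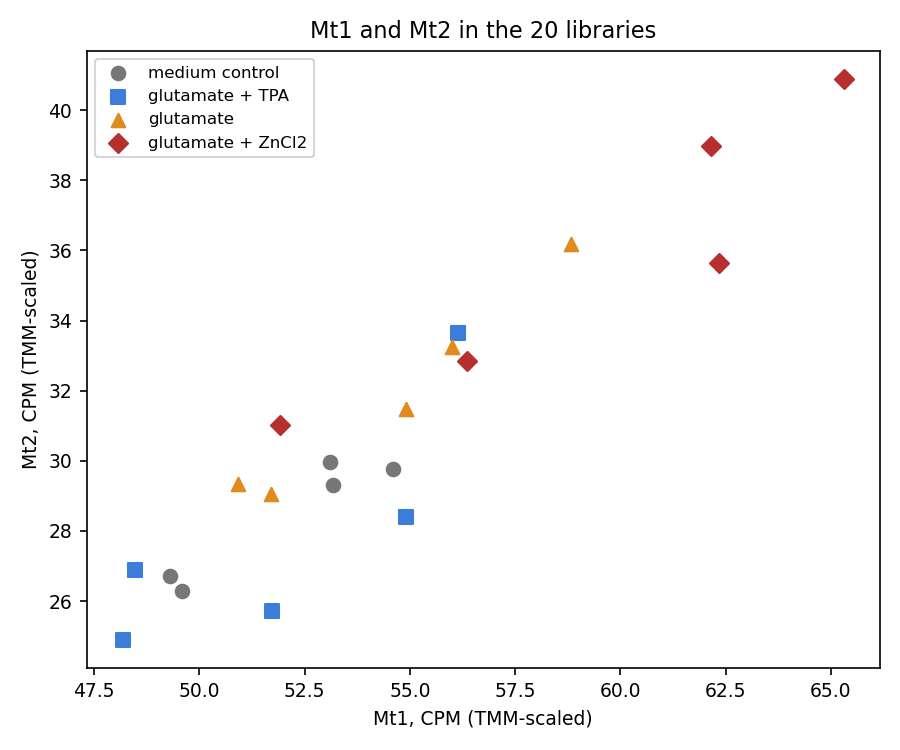
CPM of Mt2 against Mt1 in the 20 libraries, coloured by group (neither axis starts at 0). The points run along a diagonal (r of 0.94 on the log2 scale), with zinc libraries 2, 3 and 4 at the upper end and TPA library 1 apart from the other TPA libraries.

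The share of Mt2 relative to Mt1 also differed between libraries. Mt2 had 54.7 ± 1.26 counts per 100 counts of Mt1 in control (53.0 to 56.4), 58.4 ± 2.07 in glutamate (56.2 to 61.5), 60.1 ± 2.51 in the zinc group (57.2 to 62.7) and 53.7 ± 4.05 in the TPA group. All zinc libraries lay above all control libraries, with 57.2 the lowest of the former and 56.4 the highest of the latter. The ratio uses the same Mt2 and Mt1 counts as above, so this is not a separate result. How many other pairs of genes separate in this way was not counted. The TPA libraries 1 to 5 had 59.9, 51.7, 51.7, 49.7 and 55.5, so that TPA 1 lay in the range of the zinc group and the other 4 below it. The sources used here do not say how reads matching both genes were counted.

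Among 12518 other genes that averaged 1 CPM or more, the gene most like Mt1 in log2 CPM over the 20 libraries was Mt2, and the gene most like Mt2 was Mt1, with and without subtraction of group means. Mt1 was next most like Trap1 (r 0.90), a mitochondrial chaperone gene, and Calr (0.89), which encodes the calcium-binding chaperone calreticulin of the endoplasmic reticulum, then Mrps18b (0.88) and Napa (0.87). Mt2 was next most like Calr (0.91), Slu7 (0.90), Napa (0.89) and Copb2 (0.88), the last a coat protein gene of vesicles. Trap1 and Calr were lower with TPA than with zinc by log2 fold changes of -0.15 (SE 0.05, edgeR adjusted p = 0.111) and -0.17 (SE 0.05, edgeR adjusted p = 0.0873). Both genes were picked for likeness over the same libraries, group differences included. Their sharing the sign of Mt1 and Mt2 is therefore not a separate result.

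The genes most like Mt3 were others. They were Mphosph6 (r 0.82), the mitochondrial respiratory chain genes Ndufa5 (0.78) and Cox7c (0.78), the ATP synthase gene Atp5k (0.78), and Nop10 (0.77). Mtf1 was most like the iron exporter gene Slc40a1 (0.90), which is also on the list of reported MTF1 targets. Ticam1 (0.89), Stk32b (0.89), Sik3 (0.88) and Ankrd50 (0.88) followed closely and are not on that list. Among all 12518, Mt3 ranked 3795 and Mtf1 3862 in likeness to Mt1. These r values are descriptions over 20 libraries that share depth and composition effects.

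Slc30a1, the zinc exporter gene controlled by MTF1, had its highest mean in glutamate alone. It had 43.3 ± 1.17 CPM in control, 45.9 ± 2.88 in glutamate, 44.4 ± 2.75 in the zinc group and 42.6 ± 3.65 in the TPA group (n = 5 each). Its log2 fold change for TPA against zinc was -0.06 (SE 0.06, edgeR adjusted p = 0.629) and for zinc against control 0.04 (SE 0.06). Slc39a10, a zinc importer gene that MTF1 is reported to repress, had 105 ± 7.20 CPM in control, 96.1 ± 5.79 in glutamate, 97.5 ± 11.7 in the zinc group and 102 ± 5.56 in the TPA group, with 0.07 (SE 0.07, adjusted p = 0.624) for TPA against zinc.

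Of the 8 reported MTF1 targets outside the metallothioneins, all tested, 0 rose and 0 fell in any comparison. For TPA against zinc 6 of 8 had a negative log2 fold change (median -0.04, against -0.0011 over all genes). For zinc against control 7 of 8 had a positive one (median 0.05, against 0.0016). Of all 14411 genes tested, 7158 were positive in the former comparison and 7304 in the latter. The 8 include Slc39a10, reported as repressed, which had 0.07 in the former and -0.11 in the latter. The list thus mixes reported directions, and whether its sign counts differ from those of all genes was not tested. Csrp1, a LIM-domain protein gene, had the smallest p among the 8 targets for TPA against zinc, at -0.30 (SE 0.17, adjusted p = 0.391). In 48 tests over the 6 comparisons 1 had an unadjusted edgeR p under 0.05, which 8.05% of all tests over all genes had, and DESeq2 and limma-voom also passed 0 after adjustment.

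Zinc transporters move zinc out of the cytoplasm (SLC30) or into it (SLC39). Of the SLC30 exporters 8 of 10 could be tested and of the SLC39 importers 11 of 14, and 0 rose and 0 fell in any comparison with edgeR, DESeq2 or limma-voom. Of 48 and 66 tests, 0 and 4 had an unadjusted edgeR p under 0.05, against 8.05% over all genes. Slc30a3, which encodes the transporter that loads zinc into synaptic vesicles, had 4.99 ± 0.656 CPM in the TPA group and 3.97 ± 0.807 in the zinc group (log2 fold change 0.34, SE 0.17, adjusted p = 0.348). Slc39a11 had -0.15 (SE 0.06, adjusted p = 0.168) for TPA against zinc and was lower in all 5 TPA libraries than in all 5 glutamate libraries, a separation found for 0.527% of genes in that direction.

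Metallothioneins also respond to copper, glucocorticoids, oxidative stress through NRF2, and STAT3, and lists for each were read for that reason. With edgeR 0 of the 9 copper handling genes, 9 glucocorticoid receptor targets, 8 NRF2 targets and 6 tested STAT3 pathway genes of 7 rose or fell in any comparison, with 7 of 54, 4 of 54, 5 of 48 and 0 of 36 tests at an unadjusted p under 0.05 (8.05% over all genes). DESeq2 passed 1, Hmox1, for TPA against zinc, where it passed 4.49% of the 11058 genes with an adjusted p. Hmox1, the NRF2 target that encodes heme oxygenase, had 8.54 ± 1.24 CPM in control, 10.9 ± 2.16 in glutamate, 11.2 ± 3.03 in the zinc group and 7.92 ± 1.22 in the TPA group (TPA against zinc -0.51, SE 0.17, edgeR adjusted p = 0.150). Slc31a1, the main copper uptake transporter gene, had 80.7 ± 1.18 CPM in the TPA group and 88.1 ± 5.04 in the zinc group (-0.13, SE 0.05, adjusted p = 0.175), and its groups did not overlap, as for 1.14% of genes in that direction. The copper transporter genes Slc31a2 (0.29, SE 0.12, adjusted p = 0.217) and Atp7b (0.33, SE 0.15, adjusted p = 0.266) had the opposite sign, higher with TPA than with zinc. For TPA against zinc Ddit4, a glucocorticoid and stress target, had -0.13 (SE 0.05, adjusted p = 0.241), and Osmr, a cytokine receptor gene of the STAT3 list, -0.44 (SE 0.26, adjusted p = 0.424).

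Astrocytes are the main brain source of Mt1 and Mt2, so their markers were read beside them. Their median log2 fold change was 0.06 for TPA against zinc (6 of 10 positive) and -0.03 for zinc against control (3 of 10 positive). Mt1 and Mt2 were negative in the former comparison and positive in the latter. The part of astrocytes in the values of Mt1 and Mt2 was not tested. With edgeR 0 markers of any cell type passed in any comparison, with 20 unadjusted p under 0.05 in 228 tests (8.05% over all genes). DESeq2 passed 1, the neuronal Slc17a6 for TPA against zinc (4.49% of the 11058 genes with an adjusted p), and limma-voom passed 0. The 5 fibroblast markers summed to 2.99 to 4.73 CPM in control and 4.30 to 6.42 CPM in the other groups, and their part in the values of Mt1 and Mt2 was not tested.

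Of the genes that start within 100 kb of Mt1, Nup93, a nuclear pore gene whose start is 35.5 kb downstream, had a similar order of means. It had 29.8 ± 1.42 CPM in control, 32.9 ± 3.01 in glutamate, 33.7 ± 3.16 in the zinc group and 29.1 ± 1.53 in the TPA group, with a log2 fold change of -0.21 (SE 0.07, edgeR adjusted p = 0.117) for TPA against zinc and 0.18 (SE 0.07, adjusted p = 0.353) for zinc against control. Bbs2, a ciliary gene 80.3 kb upstream, had 0.02 (SE 0.05) for TPA against zinc and 0.10 (SE 0.05, edgeR adjusted p = 0.522) for zinc against control. As for Mt2, all 5 zinc libraries of Bbs2 lay above all 5 control libraries, a separation that 1.31% of all genes had in that direction.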

How the data were processed

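RNA was measured by stranded polyadenylated RNA sequencing in 20 cultures. Per the submitters' processing notes the tools were HISAT2 2.1.0, Trimmomatic 0.36, featureCounts, SAMtools 1.3.1, DESeq2 1.14.1 and R 3.3.0, with build mm10. Nothing used here says whether the counting was by strand. The authors deposited whole-number gene counts, TPM (counts divided by gene length and rescaled, per the file headers) and tables of their own comparisons, whose deposited columns are a mean normalized signal, a shrunken log2 fold change, a test score and a p-value.

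The deposited counts were filtered with edgeR's default (14411 of 24419 genes, 99.98% of counts), scaled by TMM and fitted in edgeR 4.0.16 (R 4.3.3; quasi-likelihood with robust dispersions, 4 group means, no covariate, Benjamini-Hochberg adjustment, threshold 0.05). The fit was also run on simulated counts with known changes, and the share of small changes it recovered is not given here. Log2 CPM used a prior count of 2. At totals of 28692470 to 40934630 counts, 3 counts are 0.105 to 0.0733 CPM (counting error only). Authors' fold changes were not mixed with those computed here.

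The 4 genes, the gene lists and the rule for names were chosen with earlier results of these data known. The rule names the 4 genes, Slc30a1 and Slc39a10, up to 3 members per list with the smallest p for TPA against zinc, 5 most alike genes each, and genes starting within 100 kb of Mt1; not every name it allows is printed. Slc17a6 was named after its values were seen. Alternatives were DESeq2 size factors, library size alone, DESeq2 1.42.0, limma-voom (limma 3.58.1) without and with library weights, no filter, a minimum of 1 CPM, the replicate number as a block, 2 groups alone, and leaving out each library. Added after seeing the data were no robust prior, loess offsets (span 0.5) on GC content or length, and fits without the 3 farthest or 2 smallest libraries.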

Additional observations from a re-analysis of the deposited data

How the results depend on the processing

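Of 576 values of the 4 genes under other settings, 513 kept their direction and side of the threshold, 21 came to pass it and 42 changed sign, none of these past the threshold and none larger than 0.0836 in size (log2). Mt3 and Mtf1 passed in 0. For TPA against zinc, Mt2 passed with DESeq2 size factors (-0.359), DESeq2 (-0.360), library weights (-0.414), a minimum of 1 CPM (-0.369), GC offset (-0.393), length offset (-0.343) and without the 3 farthest libraries (-0.405), and Mt1 with DESeq2 (-0.199), library weights (-0.215) and without the 3 (-0.245). For zinc against control, Mt2 passed with DESeq2 (0.335), library weights (0.333) and without the 3 (0.383), and Mt1 with the latter pair (0.202 and 0.244). With the replicate number as a block, TPA against zinc passed for Mt2 (-0.352, adjusted p = 0.0275) and Mt1 (-0.196, adjusted p = 0.0344), counts of genes went to 422 for TPA against zinc and 39 for zinc against control, and Mtf1 for zinc against control (-0.0028) and Mt1 for TPA against control (0.00022) changed sign. Same-numbered libraries deviated together over 0.1 in 11 of 30 pairs (r from -0.0699 to 0.497). Differently numbered libraries were not compared, so this does not decide whether the numbers pair the cultures. The labels state no pairing, and the block is given as an alternative only. Signs also changed for Mtf1, glutamate against control, with library size alone (0.0127), library weights (0.056), no filter (0.0011), 2 groups alone (0.00097), length offset (0.00023) and without the 3 farthest libraries (0.0836). They changed for Mt1, TPA against control, with library size alone (0.00063), 2 groups alone (0.00017), length offset (0.0080) and without the 2 smallest libraries (0.0336, and 0.0615 for Mt2). They changed for Mtf1, zinc against control, with limma-voom (-0.0019) and GC offset (-0.0053), and for zinc against glutamate with library weights (-0.0121 for Mtf1, 0.037 for Mt3), 2 groups alone (-0.00012, Mtf1) and without the 3 (-0.0377 for Mtf1, 0.077 for Mt3). Counts of genes past the threshold were 3, 0, 0, 74, 6 and 10 for glutamate against control, zinc and TPA against glutamate, TPA against zinc, and zinc and TPA against control. The first became 5 with DESeq2 size factors or a minimum of 1 CPM, 6 without the robust prior, 14 with DESeq2, 59 with library weights and 100 without the 3 libraries. Zinc against glutamate became 2, 107 and 1 with DESeq2, with library weights and without the 3, and TPA against glutamate 1, 484 and 551. TPA against zinc became 37 with library size alone, 496 with DESeq2, 3131 with library weights, 41 with no filter, 6 with 2 groups alone, 12 with GC offset, 156 with length offset, 1149 without the 3 and 0 without the 2 smallest libraries, and zinc against control 64, 1825 and 231 with DESeq2, with library weights and without the 3. With each library left out in turn, counts ran from 2 to 5, 0 to 3, 0 to 2, 5 to 899, 3 to 100 and 6 to 10 in the same order of comparisons. The members whose sign or call changed then ran, for TPA against zinc, from -0.434 to -0.309 (Mt2) and -0.245 to -0.166 (Mt1). For TPA against control they ran from -0.0294 to 0.0245 (Mt1) and -0.0985 to 0.0149 (Mt2), and for Mtf1 from -0.0318 to 0.0581 (glutamate against control), -0.0423 to 0.0459 (zinc against control) and -0.0578 to 0.0476 (zinc against glutamate), with -0.118 to 0.0278 for Mt3 in the last. The cause of these shifts was not tested.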
